A study of Homo sapiens with 2 samples.

Results

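Expression of the proteasome genes was compared between nilotinibR and parental K562 cells. K562 is an established line of chronic myeloid leukemia driven by the BCR/ABL kinase. The members were taken by symbol: a gene belonged when its probe on the array carried a symbol made of PSM, a letter from A to G and a number. The symbols of 48 of the 20046 genes named on the array fitted, and 44 of these, with 70 probes, encode proteasome subunits, activators, an inhibitor or assembly chaperones. The other 4 are PSMC3IP, PSME3IP1 and the antisense transcripts PSMD6-AS2 and PSMG3-AS1, which are no proteasome components and were counted apart. PSMA7, PSMC5, PSMD7 and PSMD13 were not analysed here. NilotinibR cells had been taken through 0.1, 0.3 and 1 µM nilotinib, a second-generation inhibitor of the ABL kinase, over 3 months, and grew routinely in 1 µM of the drug, whereas the parental cells were passaged alongside without it. Total RNA of each was measured on 1 HumanHT-12v4 BeadChip array. The line, the selection and the hybridization were thus each represented by 1 sample, no difference below has a replicate check or a p-value, and resistance and the presence of nilotinib cannot be told apart.

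The proteasome is the protease that removes proteins tagged with ubiquitin. Its barrel, the 20S core, is a stack of rings of alpha subunits, which gate the entrance, and of beta subunits, which hold the active sites. The 19S cap sits on the ends of the barrel: its base unfolds substrates with a ring of ATPases, and its lid takes off the ubiquitin chain. Other activators can replace the cap, immune cytokines exchange the active subunits for those of the immunoproteasome, and chaperones build the rings and then leave. Proteasome genes share a transcription factor, NFE2L1, that is activated when proteolysis falls short, and malignant blood cells are known for their sensitivity to proteasome inhibitors.

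Promoter sequences are shown for the genes of the activator family, PSME1, PSME2 and PSME3, which spanned the widest range of differences of any subcomplex, and for the members of the lid and of the beta ring with the largest decreases, PSMD8, PSMD3 and PSMB3. The sequences are RefSeq's, in build GRCh38.p14, and run 5′ to 3′ along the gene from 250 bases before the start site to the 50 bases from it onward. Capitals mark matches, on either strand, to the core of the antioxidant response element, TGANNNNGC, to which NFE2L1 and its relatives bind, and to the core of the interferon-stimulated response element, here 2 copies of GAAA with any 2 bases between them (the paired GAAA).
PSME1, chr14:24135944-24136243, plus strand: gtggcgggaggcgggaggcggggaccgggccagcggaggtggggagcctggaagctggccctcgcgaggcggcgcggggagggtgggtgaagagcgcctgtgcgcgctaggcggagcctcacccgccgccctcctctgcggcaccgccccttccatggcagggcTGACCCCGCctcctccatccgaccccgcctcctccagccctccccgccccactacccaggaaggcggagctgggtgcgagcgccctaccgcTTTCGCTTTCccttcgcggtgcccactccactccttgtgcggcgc
PSME2, chr14:24146561-24146860, minus strand: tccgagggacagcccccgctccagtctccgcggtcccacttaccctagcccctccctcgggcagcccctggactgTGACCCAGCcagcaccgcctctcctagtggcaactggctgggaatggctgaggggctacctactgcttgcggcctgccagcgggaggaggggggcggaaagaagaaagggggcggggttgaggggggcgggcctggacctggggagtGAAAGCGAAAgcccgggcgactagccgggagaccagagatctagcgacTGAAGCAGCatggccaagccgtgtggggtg
PSME3, chr17:42833147-42833446, plus strand: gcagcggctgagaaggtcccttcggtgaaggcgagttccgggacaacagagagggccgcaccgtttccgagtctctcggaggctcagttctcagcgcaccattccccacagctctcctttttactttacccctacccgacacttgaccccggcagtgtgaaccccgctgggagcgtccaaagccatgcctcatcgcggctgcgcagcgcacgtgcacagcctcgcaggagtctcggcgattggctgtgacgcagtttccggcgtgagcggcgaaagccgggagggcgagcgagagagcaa
PSMD8, chr19:38374321-38374620, plus strand: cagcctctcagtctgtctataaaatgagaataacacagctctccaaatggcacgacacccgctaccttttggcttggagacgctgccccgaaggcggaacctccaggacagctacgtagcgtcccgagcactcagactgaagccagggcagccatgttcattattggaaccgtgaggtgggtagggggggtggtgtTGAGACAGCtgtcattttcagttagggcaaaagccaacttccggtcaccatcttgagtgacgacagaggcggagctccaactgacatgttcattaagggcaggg
PSMD3, chr17:39980557-39980856, plus strand: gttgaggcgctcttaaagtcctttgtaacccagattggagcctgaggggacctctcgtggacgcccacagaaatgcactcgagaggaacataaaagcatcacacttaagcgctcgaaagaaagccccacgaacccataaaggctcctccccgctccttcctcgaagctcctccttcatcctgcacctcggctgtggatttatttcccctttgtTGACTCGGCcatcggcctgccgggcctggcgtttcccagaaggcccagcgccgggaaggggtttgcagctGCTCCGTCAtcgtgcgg
PSMB3, chr17:38752491-38752790, plus strand: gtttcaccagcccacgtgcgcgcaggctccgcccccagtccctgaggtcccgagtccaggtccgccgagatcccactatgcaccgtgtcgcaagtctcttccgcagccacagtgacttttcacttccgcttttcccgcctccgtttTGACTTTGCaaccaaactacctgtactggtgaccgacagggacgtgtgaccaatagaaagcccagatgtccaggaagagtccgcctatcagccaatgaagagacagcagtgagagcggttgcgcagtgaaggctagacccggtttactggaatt
PSME3 holds neither motif in this window. TGANNNNGC lies 54 bases before the start of PSMD8, 37 bases before that of PSMD3 with a further match on the opposite strand behind the start, 104 bases before that of PSMB3 and 86 bases before that of PSME1. In PSME2 it lies 175 bases before the start, with a further match behind the start. The paired GAAA begins 28 bases before the start of PSME2 and stands on the opposite strand at base 6 of PSME1. Matches are letters in a window and not measured binding.

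The deposited values are linear intensities from which the background was not removed. They spanned 88.2 to 22044 on the nilotinibR array and 92.8 to 21126 on the parental array over 47323 probes, with a median of 117 on the nilotinibR and 119 on the parental array. Dim probes ended at 119 on the nilotinibR array and at 120 on the parental array, and probes over this threshold on at least 1 array were kept. After background correction and quantile normalization, log2 values of the kept probes of each gene were averaged, for 13199 genes. Differences are nilotinibR minus parental on this scale, and a gene was called lower or higher when it differed at least 1.5-fold. Kept probes of the same gene scattered around their mean with a pooled SD of 0.29 on the log2 scale over 3414 genes, which measures disagreement between probes and not between cultures. Levels of different probes depend on their sequences and were not set against each other. Each of the 6 measured erythroid markers of K562 cells exceeded the threshold of either array, but only the globins were very bright. HBG1, HBZ and HBE1 had intensities from 14344 (HBZ, parental) to 19115 (HBG1, nilotinibR). TAL1 had 692 in nilotinibR and 223 in parental cells, and KLF1 had 911 in nilotinibR and 364 in parental cells. TAL1 was 3.69-fold and KLF1 2.80-fold higher in nilotinibR cells, whereas GATA1, HBG1, HBZ and HBE1 lay between -0.09 and 0.14 on the log2 scale and were not called. The globins lie near the highest intensities of the arrays, where a difference may not be read in full. CA1, AHSP and ALAS2, erythroid genes that were not listed, stood at 4.41, 3.03 and 2.12, and CA2 at 0.21. The 6 markers thus do not stand for all erythroid genes. Listed for other blood cells were CD3E, CD2 and CD3G of T cells, MS4A1 and CD79A of B cells, and CD14, CSF1R and LYZ of monocytes. The brightest probe of these reached an intensity of 155 on the nilotinibR and 235 on the parental array, and CD3E was dim on both. CD3D and CD69, which were not listed, differed by -3.77 and -3.07 on the log2 scale. The listed markers thus do not stand for all T cell genes. The summed intensity of the listed T cell, B cell and monocyte markers was 335, 695 and 647 on the nilotinibR array, against 386, 719 and 730 on the parental array. Fibroblast and epithelial markers summed to 3871 on the nilotinibR array, against 4539 on the parental array, mostly from KRT19 and EPCAM. The part of these cell types in the differences below was not tested. In RNA from a whole culture, a smaller share of cells that express a gene and less RNA per cell cannot be told apart.

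Proteasome genes were mostly lower in nilotinibR than in parental cells, by small amounts, with larger decreases in 4 subunits of the lid of the 19S cap, in a few subunits of the 20S core and in 2 of the activators. Of the 44 genes, 41 were measured. PSMA8, the alpha subunit of germ cells, PSMB11, the active subunit of the thymus, and PSMF1, the inhibitor PI31, were not above the dim probes on either array. At least 1.5-fold lower were 9 of the 41 genes, or 22.0%, against 8.2% of all genes measured. None was at least 1.5-fold higher, against 7.49% of all genes. At 2-fold, 3 genes were lower, namely PSMD8, PSME3 and PSMD3, where 2.77% of all genes were. Without background correction PSME3 and PSMD3 fell short of 2-fold. Any decrease was seen in 34 of the 41, or 82.9%, against 50.3% of all genes, and the median difference was -0.27 (1.21-fold lower), against -0.0026 over all genes. Counted over probes, 12 of 60 kept probes were lower, against 7.13% of all kept probes, and 1, a probe of PSME1, was higher, against 6.69%. Genes whose products work together may be regulated together, which was not tested, so these counts cannot be read as counts of independent genes. The nearest members to the threshold were PSMD12 at -0.68 on its inner side, and PSMB7 at -0.54 and PSME1 at 0.56 on its outer side.

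**Figure D1:**
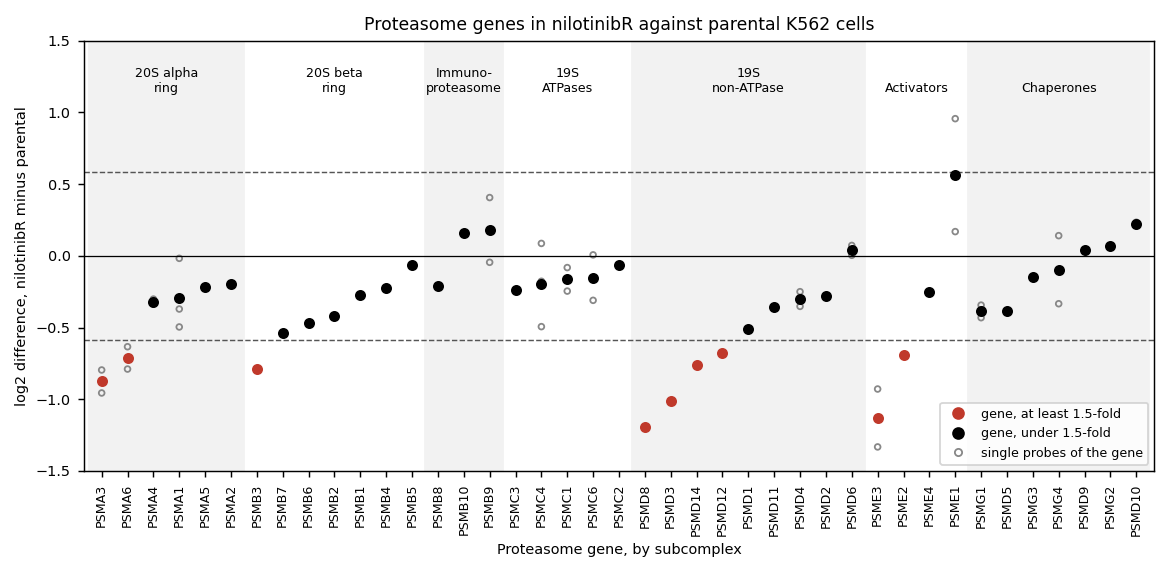
Differences of the 41 measured proteasome genes on the log2 scale, nilotinibR minus parental, grouped by subcomplex and ordered within it. Filled points are genes, red where the difference is at least 1.5-fold, open circles are single kept probes of genes with several, and dashed lines mark 1.5-fold. Red points lie only below 0, with PSMD8 at -1.20 and PSME3 at -1.13 the lowest, and PSME1 at 0.56 is the highest.

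**Figure D2:**
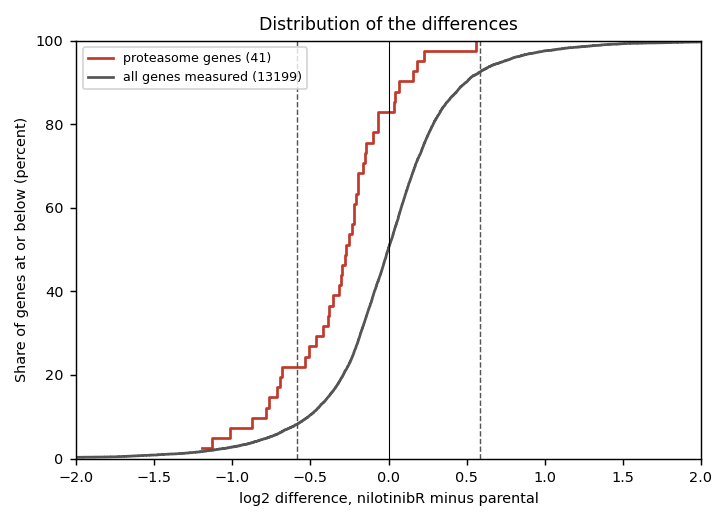
Share of genes, in percent, at or below each log2 difference, nilotinibR minus parental, for the 41 proteasome genes (red) and all 13199 genes measured (grey), with dashed lines at 1.5-fold. The red line lies above the grey line from the lower dashed line on, and at 0 it stands at 82.9% against 50.3%.

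All 6 measured genes of the alpha ring and all 7 of the beta ring were below 0, with medians of -0.31 and -0.42. PSMA3, an alpha subunit, was read by 2 probes with intensities of 354 and 1081 in nilotinibR cells, against 659 and 1919 in parental cells. Both probes were lower, at -0.96 and -0.80 on the log2 scale, and the gene was 1.84-fold lower. PSMA6, another alpha subunit, gave 3494 and 1098 in nilotinibR cells, against 5496 and 1944 in parental cells. Its probes differed by -0.63 and -0.79, and the gene was 1.64-fold lower. PSMA4, PSMA1, PSMA5 and PSMA2 lay between -0.32 and -0.20 and were not called, with PSMA2 at the top of the ring (intensities of 263 in nilotinibR and 296 in parental cells). PSMA1 averages probes at -0.50 and -0.37 with another just over the threshold, at 123 in nilotinibR and 125 in parental cells (-0.02).

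PSMB3, a beta subunit with no active site, was the 1 called gene of its ring. Its intensity was 2363 in nilotinibR and 4255 in parental cells, and it was 1.73-fold lower. The 3 genes of the catalytic subunits stood below 0 without a call. PSMB7, which carries the trypsin-like activity, had an intensity of 2987 in nilotinibR and 4543 in parental cells (-0.54, or 1.45-fold lower). PSMB6, which carries the caspase-like activity, had 2421 in nilotinibR and 3505 in parental cells (-0.47). PSMB5, which carries the chymotrypsin-like activity and is the main target of bortezomib, had 2235 in nilotinibR and 2472 in parental cells. At -0.06 it was the beta subunit closest to 0, whereas the structural subunits PSMB2, PSMB1 and PSMB4 lay between -0.42 and -0.22.

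The 3 counterparts of the catalytic subunits in the immunoproteasome stayed close to 0, with a median of 0.16. PSMB10, which takes the place of PSMB7, had an intensity of 1816 in nilotinibR and 1723 in parental cells (0.16). PSMB9, which takes the place of PSMB6, was read near the dim probes, at 121 and 119 in nilotinibR cells, against 105 and 123 in parental cells. Each of its probes passed on only 1 array, and the gene stood at 0.18. PSMB8, which takes the place of PSMB5, had 4 probes, of which 1 was kept, at 111 in nilotinibR and 122 in parental cells. It passed on the parental array only, so its difference of -0.21 is between a dim value and one just over the threshold. For PSMB8 and PSMB9 a difference between the conditions was not detectable at these intensities.

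**Figure D3:**
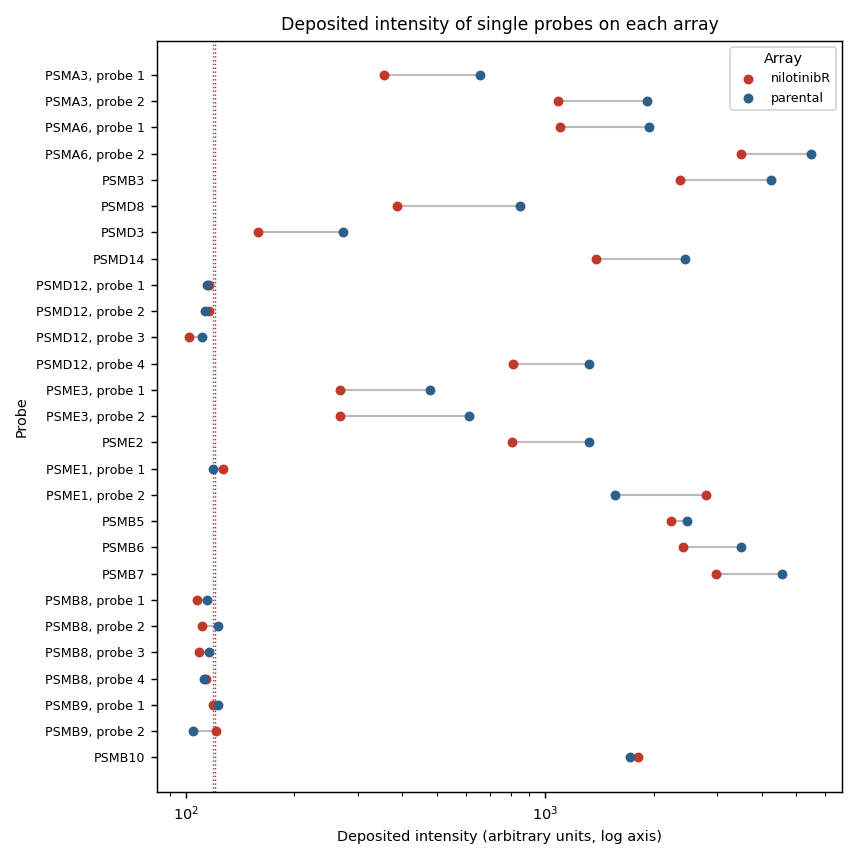
Deposited intensity (arbitrary units, log axis) on the nilotinibR array (red) and the parental array (blue) for every probe of the 9 called genes, PSME1, the catalytic subunits and their immunoproteasome counterparts, 1 probe per line. Dotted lines mark the dim-probe thresholds, 119 and 120. Red lies left of blue for every probe of a called gene but 2 dim probes of PSMD12, and right of blue for both probes of PSME1.

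The 19S cap held the largest decrease. Its ATPases, the ring that unfolds substrates, differed by small amounts. The 5 measured genes had a median of -0.16, from -0.24 for PSMC3 (intensities of 1424 in nilotinibR and 1750 in parental cells) to -0.07 for PSMC2 (3217 in nilotinibR and 3517 in parental cells), and none was called. PSMC1, PSMC4 and PSMC6 lay between these. The probes of PSMC4 ran from -0.49 to 0.09. PSMC6 averages a bright probe (1317 in nilotinibR and 1702 in parental cells, -0.31) with one just over the threshold (124 in nilotinibR and 125 in parental cells, 0.01). By the brightest probe of each gene, PSMC6 was the lowest ATPase at -0.31, and the median was -0.24. Of the 9 measured subunits that are not ATPases, 4 (44.4%) were called lower, against 8.2% of all genes measured, and the median was -0.51.

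All 4 of these belong to the lid. PSMD8, which joins the lid as the last step of its assembly in yeast, had an intensity of 386 in nilotinibR and 848 in parental cells and was 2.29-fold lower. PSMD3, a scaffold subunit of the lid, had 159 in nilotinibR and 273 in parental cells and was 2.02-fold lower. PSMD14, the metalloprotease that cuts the ubiquitin chain off the substrate, had 1388 in nilotinibR and 2447 in parental cells and was 1.70-fold lower. PSMD12, another scaffold subunit, had 815 in nilotinibR and 1321 in parental cells and was 1.60-fold lower by its 1 kept probe, and its 3 other probes were dim on both arrays, at 102 to 116 in nilotinibR and 111 to 115 in parental cells. The other measured members that belong to the lid were PSMD11 at -0.36 and PSMD6 at 0.04, whose 2 probes gave 1046 and 2607 in nilotinibR cells, against 1079 and 2662 in parental cells. With SEM1, a small lid subunit whose symbol lies outside the PSM names, at 0.02, 4 of 7 measured lid genes were called and the median was -0.68. The base is made of the ATPases with PSMD1, PSMD2 and the ubiquitin receptors PSMD4 and ADRM1, the last of which also has another name. Of its 9 measured genes 1, ADRM1, was called, and the median was -0.24. Without these 2 genes the counts were 4 of 6 in the lid and 0 of 8 in the base. Of all genes measured 8.2% were lower, and the counts of the base are near that share. This split of the cap was chosen after its values were seen. Over the 27 measured members of the constitutive 20S core and 19S cap together, 26 were below 0 and 7 (25.9%) were called lower.

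The activators went in both directions. PSME3, which forms the nuclear activator PA28 gamma, was read by 2 probes with intensities of 269 and 268 in nilotinibR cells, against 615 and 477 in parental cells. Both were lower, at -1.33 and -0.93 on the log2 scale, and the gene was 2.19-fold lower. PSME1 and PSME2 encode the alpha and beta subunits that build the cytoplasmic activator PA28 together. PSME2 had an intensity of 808 in nilotinibR and 1322 in parental cells and was 1.62-fold lower. PSME1 had 2805 in nilotinibR and 1560 in parental cells by its bright probe, a difference of 0.96, and 127 in nilotinibR and 119 in parental cells by a second probe, which on the parental array was among the dim ones. Averaged over both probes PSME1 stood at 0.56, or 1.48-fold higher, which was not called, and its bright probe alone was past 1.5-fold. The partners of this activator thus lay on opposite sides of 0, PSME1 without a call. Both genes lie close together on chromosome 14, with EMC9 between them. Both promoters hold the paired GAAA, as capitals in the sequences above show. Whether the genes share regulation was not tested. PSME4, which forms the activator PA200, had 1185 in nilotinibR and 1456 in parental cells and a difference of -0.25.

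No assembly chaperone was called, where 8.2% of all genes measured were lower and 7.49% higher, and the 7 had a median of -0.10. The lowest was PSMG1, a chaperone of the alpha ring, whose 2 probes gave 1758 and 932 in nilotinibR cells, against 2486 and 1218 in parental cells (-0.39). The highest was PSMD10, the oncoprotein gankyrin, which assists the assembly of the ATPase ring and was read by 3 probes. They gave 1926, 224 and 791 in nilotinibR cells, against 1732, 198 and 709 in parental cells, and differed by 0.23, 0.23 and 0.21. The other chaperones of the base, PSMD5 and PSMD9, stood at -0.38 and 0.04. PSMG2, the partner of PSMG1, stood at 0.07, and PSMG3 and PSMG4, a second pair of alpha ring chaperones, at -0.15 and -0.10. The probes of PSMG4 gave 663 and 123 in nilotinibR cells, against 847 and 117 in parental cells, and without the dimmer one, which passed on the nilotinibR array only, the gene stood at -0.33.

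The probes of a gene mostly pointed the same way. Of the 15 members with several kept probes, 11 had probes of 1 sign. The widest gap was 0.79 on the log2 scale, in PSME1, and no member reached a gap of 1.

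Of 13 genes that work with the proteasome but carry other names, all measured, 2 (15.4%) were called lower and none higher, with a median of -0.16, where 8.2% of all genes were lower. ADRM1, a ubiquitin receptor of the base, had intensities of 505 and 267 in nilotinibR cells, against 1016 and 383 in parental cells, and was 1.75-fold lower. UCHL5, the deubiquitinase that ADRM1 docks on the cap, had 808 in nilotinibR and 1333 in parental cells and was 1.63-fold lower. The products of both genes bind each other on the cap, and both genes were lower. POMP, the maturation chaperone of the 20S core, stood at -0.47 without a call, and USP14, another deubiquitinase of the cap, at 0.14. PAAF1, a chaperone that binds the ATPases, was the highest at 0.47.

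None of 5 genes in the control of proteasome expression by NFE2L1 was called, and their median was -0.31. NFE2L1 itself stood at 0.00, and VCP, the ATPase that extracts it from the membrane, was the lowest at -0.46. None of 5 measured ubiquitin receptors and shuttles was called (median -0.22), nor any of 3 measured genes for ubiquitin and its activating enzymes (median -0.07). The COP9 signalosome, whose subunits are relatives of those of the lid, had none of 9 called and a median of -0.07. Of all genes measured, 8.2% were lower and 7.49% higher, and no call in lists this short is close to these shares.

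Measured were 5 genes that interferon induces together with the immunoproteasome and PSME1, namely IRF1 and, of peptide loading, TAP1, TAP2, TAPBP and ERAP1. Of these 5, 4 stood above 0 and 1, TAP2, below. Their median was 0.56, and 50.3% of all genes were below 0. IRF1, a transcription factor of the interferon response, had an intensity of 515 in nilotinibR and 244 in parental cells and was 2.43-fold higher. TAP1, a subunit of the peptide transporter, had 278 in nilotinibR and 185 in parental cells and was 1.66-fold higher. TAP2, its partner, had 145 in nilotinibR and 216 in parental cells by its kept probe and was 1.71-fold lower. The other probe of TAP2 was dim on both arrays, at 115 in nilotinibR and 116 in parental cells. TAPBP and ERAP1 stood at 0.56 and 0.20, without a call. The brightest probe of TAPBP had 1031 in nilotinibR and 539 in parental cells, a difference of 1.05, which alone was past 1.5-fold. Its dimmer probes differed by 0.35 and 0.26. TAP1 and TAP2 flank PSMB8 on chromosome 6 in the order TAP2, PSMB8, TAP1 and PSMB9. Like PSME1 and PSME2, the transporter partners thus lay on opposite sides of 0.

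**Figure D4:**
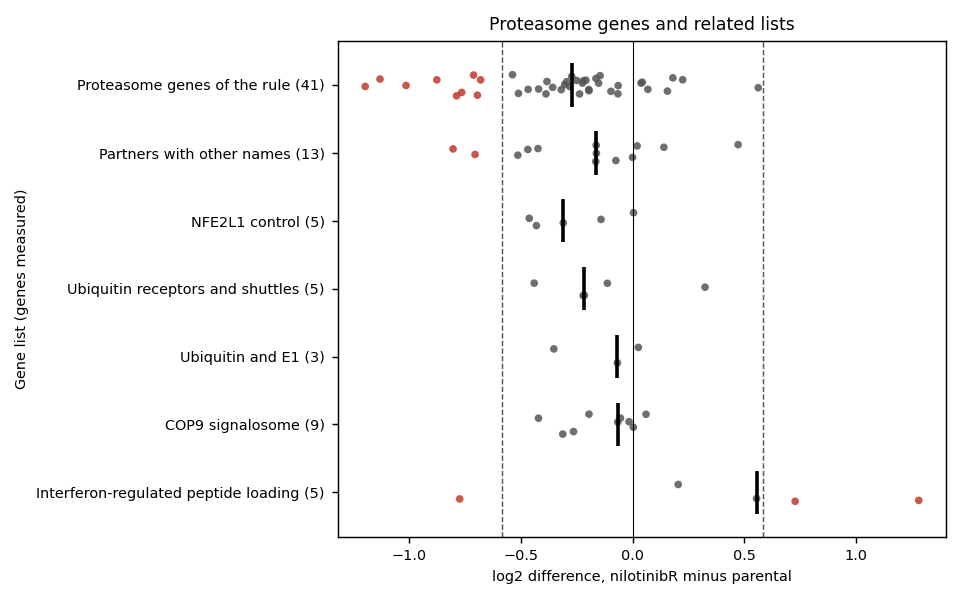
Log2 differences, nilotinibR minus parental, of the measured genes of the proteasome and of 6 related lists, with the number measured in brackets. Points are genes, red at 1.5-fold or more, thick bars are medians, and dashed lines mark 1.5-fold. The median of the proteasome genes lies at -0.27, that of the COP9 signalosome at -0.07 and that of interferon-regulated peptide loading, a list that includes IRF1, at 0.56.

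Promoters were found for 39 of the 44 members, and a gene was counted when any of its promoters held a motif. TGANNNNGC, searched on both strands, is in 41.8% of all 35116 promoters of this length and in 30 of the 47 promoters of the members. Counted by gene, 47.1% of 27305 genes and 26 of the 39 members held it. It was in 8 of the 9 called genes, the exception being PSME3, and in 16 of the 27 other measured members with a promoter. The paired GAAA, also searched on both strands, is in 3.57% of all promoters and, by gene, in 4.38%, and was in 7 members, namely PSMA4, PSMB4, PSMB8, PSMB10, PSME1, PSME2 and PSMG4. Of these, PSME2 was the 1 called gene. In no member did a match of one motif overlap a match of the other.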

How the data were processed

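Total RNA of 1 nilotinibR and 1 parental K562 culture was profiled on HumanHT-12v4 arrays. The authors named GenomeStudio and robust multichip average for their processing and deposited linear intensity values that still hold their background. Which of these steps were applied to them is not known from the sources used here. Another 4 columns of scanner output, whose names match no sample label, were not used.

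Background was corrected by normexp with an offset of 50 (limma 3.58.1, R 4.3.3), followed by quantile normalization and log2 transformation of the deposited values. The offset pulls differences of dim probes toward 0. The dim-probe threshold of an array was the intensity that 5% of a normal background around the mode of its dim probes would exceed. At least 1 array had to pass, which kept 25621 probes. Of all probes, 30113 have 1 symbol in the annotation of the platform, 8 have several and 17202 have none, and symbols were brought up to date through RefSeq.

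The 2-sample test of the study needs replicates and was not run, and 1 array per condition limits the precision. A difference was called at 1.5-fold, the study's fold. Values are given for every called member, the extremes of each subcomplex, the catalytic subunits and their counterparts, members whose probes differ by 1 or more, those nearest the threshold, and called genes of the other lists, with some others as examples. Members and lists were chosen with earlier results of these data known. Results were recomputed with an offset of 16, without background correction, with scaling by the median or the 75th percentile, on log2 of the deposited values alone, with no filter or with both arrays required, with the brightest probe per gene, at 2-fold, and over probes. The scripts, in Python 3.11.15 with pandas 2.3.3 and SciPy 1.17.1, were tested on simulated data.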

Additional observations from a re-analysis of the deposited data

How the results depend on the processing

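No paired analysis was possible because a single array stands for each condition, and leaving out a replicate was likewise not possible. The number of lower proteasome genes was 8 to 12 under the other settings at 1.5-fold, and the 9 genes called here stayed lower in all of them but for PSMD12 without a filter on dim probes, where 3 dim probes entered its mean and its difference was -0.17. The share of all genes that were lower ran from 4.96% without a filter, where 8 of 44 members were lower, to 12.5% with an offset of 16, where 9 of 41 were. With both arrays required, 9 of 39 members and 10.1% of all genes were lower. The share of all genes that were higher ran from 4.55% to 11.9%. At 2-fold, 3 were lower. PSME1 became the 1 higher gene with an offset of 16 (0.64), and with the filter that asks for both arrays or with the brightest probe (0.96 each), and counted over probes 1 was higher. PSMB7 passed as lower under median scaling (-0.64), 75th percentile scaling (-0.66) and in the deposited values (-0.60), and PSMB6 (-0.59) and PSMD1 (-0.60) passed under 75th percentile scaling. The median of the members ranged from -0.36 to -0.23, while that of all genes was at most -0.031 away from 0, under 75th percentile scaling. With an offset of 16, 1653 of all genes were lower and 1572 higher. No called gene changed sign, and the cause of the moves between settings was not tested beyond the probes that enter. Intensity over background limits PSMB8, PSMB9, the dim probes of PSMD12, PSME1 and PSMG4, and the probes of PSMA1 and PSMC6 just over the threshold. PSMG4 stood at -0.33, without a call, when its probe that was dim in parental cells was left out, by the filter on both arrays or by the brightest probe.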

Other observations

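Of the 4 other genes whose symbols fit, PSMC3IP, a recombination factor, stood at 0.04 on the log2 scale and PSME3IP1, which binds PSME3, at -0.10. The antisense transcript PSMG3-AS1 had an intensity of 145 in nilotinibR and 116 in parental cells, and PSMD6-AS2 had 126 in nilotinibR and 117 in parental cells. Both passed the dim-probe threshold on the nilotinibR array only, and their differences were 0.51 and 0.20.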
